A study of Mus musculus with 2 samples.

Results

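The barcodes described here are droplets that carried the RNA of collagen-producing cells in tumour suspensions sorted for leukocytes. They were chosen from both matrices by counts of unique molecular identifiers (UMIs), the tags that count single RNA molecules. A barcode with 200 or more genes was taken when its Col1a1, Col1a2 and Col3a1 UMIs summed to 20 or more. It also had to hold 0 Ptprc UMIs, at most 1 UMI of Cd3e, Cd3d and Cd3g together, at most 1 Csf1r UMI and at most 4 UMIs of Krt71 and Krt25. Of 9255 barcodes with 200 or more genes, 69 met these limits. The E2 library gave 54 of them and the placebo library 15. Measured values therefore chose the members, and their collagen levels and low immune counts are descriptions of that choice.

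The tumours came from mice of strain C57BL6\J, and their RNA was counted per droplet with the 3′ kit of 10x Genomics. After dissociation, live cells bearing CD45, the leukocyte surface protein that Ptprc encodes, were sorted by flow cytometry. The E2 group was ovariectomised mice given E2 (estradiol), and the control group was ovariectomised mice given placebo, so both lacked ovaries. Each group held 1 library. Not given in the sources used here are the kind of tumour, how much E2 was given and for how long, and the ages and number of the mice. With 1 library per group no difference between the groups has a replicate check, and no test was made. All intervals are 95% intervals that cover counting error only, and not the spread between mice, which could not be measured.

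Fibroblasts are the connective tissue cells that build and remodel the extracellular matrix. They secrete fibrillar collagens and the small proteoglycans that space the fibrils, and in tumours they also release chemokines, growth factors and matrix proteases. They carry no CD45 of their own, so in a CD45+ sort they are cells that lie outside the gate. Estradiol acts through the nuclear receptors encoded by Esr1 and Esr2, which bind a palindromic DNA element, and stromal cells of several tissues are known to express Esr1.

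The 20-UMI limit lay in a thinly filled range. In the E2 library 90.6% of barcodes held 0 UMIs of the 3 collagens, and in the placebo library 96.6% did. A further 481 E2 barcodes and 102 placebo barcodes held 1 to 19. Just inside the limit, 9 E2 and 3 placebo members held 20 to 29 collagen UMIs. Just outside it, 16 E2 and 2 placebo barcodes held 10 to 19. At the other end, 13 E2 and 5 placebo members held 1000 or more, up to 3816 in an E2 member and 2434 in a placebo member. The median member held 190.5 collagen UMIs in the E2 library and 215 in the placebo library. The limits on immune and keratin genes removed 9 of the 63 E2 barcodes with 20 or more collagen UMIs, 8 of them for a Ptprc UMI, and none of the 15 placebo barcodes.

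The members were deeper than their libraries, which a limit on raw collagen UMIs favours. Their median was 13740 UMIs in the E2 library and 8499 in the placebo library, where all deposited barcodes had medians of 8049 and 5128 UMIs for E2 and placebo. Summed over members, the E2 library gave 868035 UMIs and the placebo library 273608. The 5 deepest placebo members held 76.2% of the placebo sum, against 28.0% for the 5 deepest E2 members. Placebo levels therefore rest largely on 5 barcodes.

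The libraries shared 95 barcode sequences. In 35 of these pairs one partner was at least 20 times deeper, 8 with the deeper partner in the E2 library and 27 in the placebo library. Among the members, 7 E2 and 8 placebo barcodes were shared, and in 6 pairs both partners were members. In each of those 6 pairs the shallower partner held between 1.08% and 2.30% of the UMIs of the deeper one. These lower partners, 4 in the E2 library and 2 in the placebo library, held 0.448% and 0.410% of the member UMIs of E2 and placebo. Of the 5 deepest placebo barcodes with fibroblast markers, those with 23076, 31601, 32773 and 44196 UMIs were shared with the E2 library, and the one with 24275 UMIs was not.

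**Figure D1:**
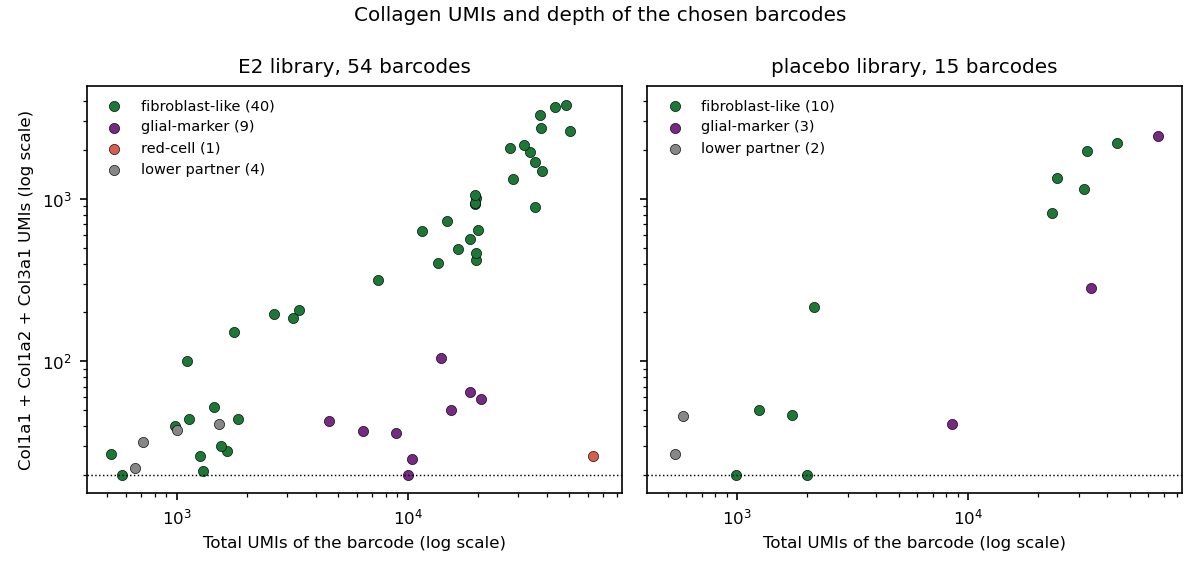
Each point is 1 chosen barcode, with its total UMIs on the horizontal axis and its summed Col1a1, Col1a2 and Col3a1 UMIs on the vertical axis (both log scales), the E2 library on the left and the placebo library on the right. The dotted line is the limit of 20 UMIs. Colours mark the barcodes by the other markers they carry, and the glial-marker barcodes of the E2 library lie low in collagen for their depth.

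The fibroblast label held for most members, with 13 exceptions set apart by glial or red-cell markers. Over all members Col1a1, a chain of type I collagen, stood at 18050 counts per 1000000 UMIs (CPM) in the E2 library and 15924 CPM in the placebo library. Col3a1, the type III collagen chain, stood at 13270 and 12445 CPM in E2 and placebo. Sparc, a collagen-binding matricellular protein, stood at 11231 and 8414 CPM. Dcn (decorin) and Lum (lumican), proteoglycans that bind collagen fibrils, were the markers that not every member carried. Dcn UMIs were found in 43 of 54 E2 members and 13 of 15 placebo members, and Lum UMIs in 36 of 54 and 12 of 15.

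In the other barcodes the same genes were far lower. Col1a1 stood at 28.3 CPM in the other E2 barcodes and 2.76 CPM in the other placebo barcodes. Dcn stood at 15.8 and 2.47 CPM there, and Lum at 2.98 and 0.577 CPM. In order, the 25 genes highest in members over other barcodes, taking the lower value of the 2 libraries, opened with Col1a1, Col1a2, Col3a1, Dcn, Col6a1, Lum, Col6a2, Bgn, Fstl1 and Col6a3. Further down came Sparc, Postn, the microfibril genes Mfap5, Mfap2, Fbn1 and Fbn2, the procollagen processing gene Pcolce, the collagen chaperone gene Serpinh1, the gelatinase gene Mmp2 and the imprinted noncoding RNA Meg3. For Lum the log2 ratio of members to other barcodes was 7.04 in the E2 library and 7.77 in the placebo library.

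Of the exceptions, 12 barcodes carried 10 or more UMIs of a list of 10 peripheral glial and Schwann cell genes. They were 9 E2 and 3 placebo barcodes. Sox10, the neural crest transcription factor, had 38 UMIs in all 9 of the E2 ones and 32 UMIs in all 3 of the placebo ones. S100b, a glial calcium-binding protein, had 82 and 18 UMIs in E2 and placebo. The 9 E2 glial-marker barcodes held 0 UMIs of Dcn, Lum and Pdgfra, and their Col1a1 stood at 865 CPM. The placebo glial-marker barcodes were not alike. The deepest, with 66019 UMIs, held 56 glial-list UMIs together with 2434 collagen UMIs and 334 Dcn UMIs. In the E2 library 1 further member, with 63414 UMIs, held 8749 UMIs of red-cell genes, 229 of Rgs5, a pericyte gene, and 41 of Pecam1, an endothelial gene, beside 26 collagen UMIs.

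Leaving out the glial-marker and red-cell barcodes and the 6 lower partners left 40 E2 and 10 placebo barcodes, called fibroblast-like below. All 50 carried Col1a1, Col1a2, Col3a1 and Sparc. They held 0 UMIs of Epcam (epithelial), Krt71 and Krt25 (hair follicle keratins) and Rgs5 in both libraries, and 0 of Ptprc by the rule. Other mural genes were present, the mural list reaching 45 UMIs in the E2 barcode of 48353 UMIs. Of all members, only 23 E2 and 6 placebo barcodes held under 3 UMIs of the mural list and under 3 of the endothelial list. The fibroblast marker list took 7.03% of their UMIs in the E2 library and 6.15% in the placebo library. Pan-leukocyte genes gave 168 and 56 UMIs in all, macrophage and monocyte genes 51 and 8, T and NK genes 5 and 2, and B cell genes 3 and 1, in E2 and placebo. The part of such leukocyte RNA in the values below was not tested. This smaller set was drawn after the values were seen.

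**Figure D2:**
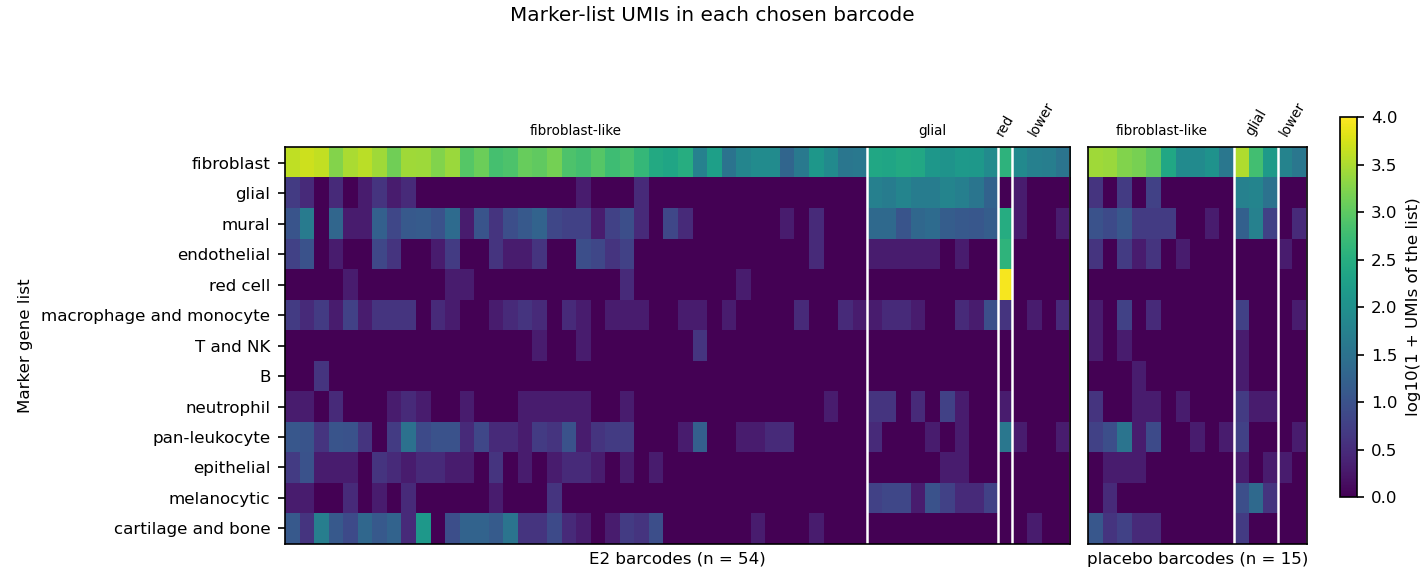
Each column is 1 chosen barcode (54 E2 on the left, 15 placebo on the right) and each row a marker list, with colour giving log10 of 1 plus the UMIs of the list. White lines part the fibroblast-like, glial-marker, red-cell and lower-partner barcodes. The fibroblast row is filled in every column, the glial row is filled in the 12 glial-marker barcodes, and the pan-leukocyte row reaches at most 37 UMIs, in the red-cell barcode.

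The members made up 0.937% of E2 barcodes (54 of 5765, interval 0.704 to 1.22%) and 0.430% of placebo barcodes (15 of 3490, interval 0.241 to 0.708%). The ratio was 2.18, with a counting interval of 1.21 to 4.16. For fibroblast-like barcodes the shares were 0.694% and 0.287% in E2 and placebo, a ratio of 2.42 (1.19 to 5.43). The ratio was above 1 under every other setting tried, between 1.85 after doublet removal (45 E2 and 15 placebo members) and 4.02 without any shared barcode (47 and 7). The sort was set for CD45+ cells and each group gave 1 library, so a difference between the tumours and a difference in sorting cannot be told apart.

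Over all 69 members, 7084 genes had 20 or more UMIs in both libraries together and are called measured. A gene is called past the fold when the log2 ratio of E2 to placebo CPM, with 10 CPM added to each, was at least 1 in size. That held for 286 genes higher in E2 (4.04%) and 266 lower (3.75%), together 7.79%, and the median over all measured genes was -0.06. Without any shared barcode 7 placebo members were left, and the counts were 1069 and 516.

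The proliferation genes stood far apart in this set. Of 22 measured, 18 were past the fold lower in E2 and 1 higher, with a median log2 ratio of -3.64. Mki67, the Ki-67 antigen, had 3 UMIs in E2 members and 108 in placebo members. Top2a, the mitotic topoisomerase, had 6 and 73, and Stmn1, a microtubule regulator, 55 and 202. The placebo UMIs of the list lay mostly in the glial-marker barcodes of 66019 and 33943 UMIs, which held 1033 and 640 of the 1848 placebo list UMIs. The barcode of 66019 UMIs also held 3391 UMIs of the fibroblast marker list and 2434 collagen UMIs. Which kind of cell its proliferation RNA came from was not tested. The fibroblast-like set leaves these barcodes out. Within it the list took 0.0892% of UMIs in the E2 library and 0.0982% in the placebo library. The median of the 5 measured genes was 0.14. Among the lowest 15 named genes over all members, only 2 were also named in the fibroblast-like set. All further results are given for the 40 E2 and 10 placebo fibroblast-like barcodes.

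Proliferation UMIs were few in nearly every fibroblast-like barcode. One E2 barcode of 35486 UMIs held 126 of them, the highest number. Among shallow E2 barcodes, those of 984 and 1448 UMIs held 11 and 15. The highest share in a placebo fibroblast-like barcode was 0.143%, in an E2 one 1.12%.

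**Figure D3:**
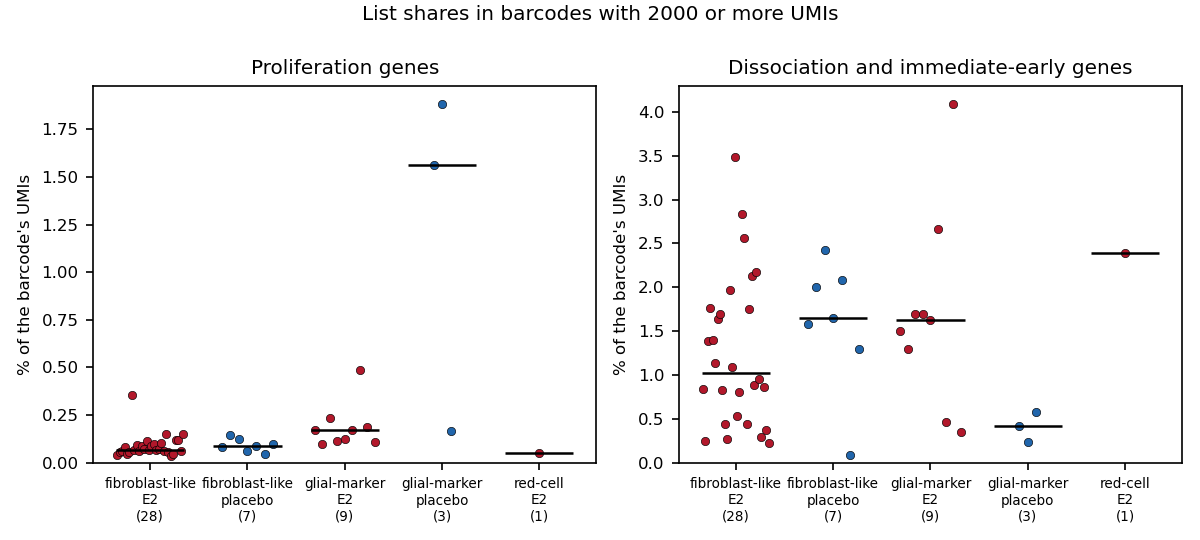
Each point is 1 barcode with 2000 or more UMIs, its height the percent of its UMIs in proliferation genes (left) or in dissociation and immediate-early genes (right), and horizontal lines are medians. In the left panel the placebo glial-marker barcodes reach 1.89%, far above the fibroblast-like barcodes of both libraries. In the right panel the fibroblast-like barcodes of E2 and placebo overlap.

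In the fibroblast-like barcodes 5704 genes were measured, 348 past the fold higher in E2 (6.1%) and 217 lower (3.8%), together 9.91%, with a median of -0.02. These shares are the background for the list counts below. The E2 values sum 692010 UMIs and the placebo values 164026, of which 95.1% came from the 5 deepest placebo barcodes. The counts were 1067 higher and 505 lower without any shared barcode, and 1082 and 686 when every barcode had equal weight. Without shared barcodes the placebo set was the barcode of 24275 UMIs and shallower ones of 983 to 2147 UMIs. The 3 collagens of the rule were close. Col1a1, at chr11:94936224-94953042 of GRCm38, stood at 22439 CPM in E2 and 19863 CPM in placebo, a ratio of 1.13 (1.09 to 1.17). Col1a2 stood at 15548 and 13626 CPM, and Col3a1, at chr1:45311538-45349706, at 16201 and 14284 CPM. Over single barcodes with 2000 or more UMIs, Col3a1 ran from 4968 through a median of 15244 to 30118 CPM in 28 E2 barcodes, and from 2999 through 14777 to 34933 CPM in 7 placebo barcodes. The E2 range lay within the placebo range.

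None of the 8 measured fibrillar collagens was past the fold, with a median of 0.19, and the one nearest to it was Col5a3, a minor type V chain, at 0.86. The other collagens differed more. Of 13 measured, 4 were past the fold higher in E2 and 1 lower, beside 6.1% and 3.8% of all measured genes. Col7a1, the anchoring fibril collagen, had 63 UMIs in 13 of 40 E2 barcodes and 0 in placebo, at least 4.98-fold higher against a floor of 3 UMIs over the placebo group. Col12a1, which coats fibrils in stretched tissue, stood at 631 CPM in E2 (437 UMIs) and 256 CPM in placebo (42 UMIs), log2 1.27. Col8a1, a short-chain network collagen, gave 269 and 30 UMIs, log2 1.05, and 86.7% of the placebo UMIs came from 1 barcode.

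Col18a1, the basement membrane collagen that contains endostatin, went the other way, with 775 CPM in E2 and 1896 CPM in placebo, log2 -1.28. In single barcodes its median was 706 CPM in E2 and 1804 CPM in placebo, and the ranges overlapped between 499.8 and 2402 CPM. The beaded-filament chain Col6a1 stood at 3056 and 1841 CPM, log2 0.73, short of the fold.

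The small leucine-rich proteoglycans had 0 of 7 measured genes past the fold. Their main members pointed in different directions. Dcn stood at 5811 CPM in E2 and 8968 CPM in placebo, log2 -0.63, and Lum at 2108 and 3073 CPM, log2 -0.54, while Bgn (biglycan) stood at 3014 and 2006 CPM, log2 0.59. In single barcodes Dcn ran from 593 to 18300 CPM in E2 and from 6438 to 15492 CPM in placebo. All 7 placebo barcodes lay above the E2 median of 5749 CPM.

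Among matrix glycoproteins and matricellular proteins, 9 of 41 measured genes were past the fold higher in E2 and 3 lower. The shares over all measured genes were 6.1% and 3.8%, and the list median was 0.03. Tnc, tenascin-C, an oligomeric protein of remodelling matrix, had the largest log2 ratio of the named genes, 3.98. It gave 500 UMIs (723 CPM) in 14 of 40 E2 barcodes and 6 UMIs (36.6 CPM) in 1 of 10 placebo barcodes, a CPM ratio of 19.8 (9.01 to 54.1). One E2 barcode held 55.6% of its UMIs. Over all members, where glial-marker barcodes also carried Tnc, the values were 744 CPM in E2 and 395 CPM in placebo, log2 0.90.

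Postn, periostin, which links collagen to other matrix proteins, was spread over more cells. It stood at 2332 CPM in E2 (35 of 40 barcodes) and 762.1 CPM in placebo (9 of 10), log2 1.60. In barcodes with 2000 or more UMIs it ran from 141 through 1488 to 7609 CPM in E2 and from 499.8 through 701 to 2329 CPM in placebo. The E2 range thus covered the placebo range and reached above it. Thbs2 (thrombospondin 2, 183 and 13 UMIs, log2 1.62), Fbln1 (fibulin 1, 69 and 5 UMIs, log2 1.44) and Eln (elastin, 69 UMIs in 13 E2 barcodes and 1 in placebo, log2 2.77) were also higher in E2. Lower in E2 were Tnxb, tenascin-X, with 34 and 32 UMIs in E2 and placebo (log2 -1.79), and Tgfbi, a TGF-beta-induced matrix protein, with 717 and 1451 CPM (log2 -1.01).

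Spp1, osteopontin, a secreted phosphoprotein that binds integrins and CD44, gave 278 UMIs (402 CPM) in E2 and 3 UMIs (18.3 CPM) in placebo, a ratio of 22.0 (7.44 to 107). The UMIs lay in 15 of 40 E2 barcodes, 46.4% of them in 1. Each of 3 placebo barcodes held 1 UMI. After thinning to 2000 UMIs, Spp1 was found in 9 of 28 E2 barcodes (32.1%, interval 15.9 to 52.4%) and in 0 of 7 placebo barcodes (interval up to 41.0%). Without thinning it was found in 13 of 28 and 3 of 7. The 120 bases before the RefSeq transcription starts of Col3a1, the type III collagen named above, and of Spp1 are shown because one gene helped choose the members and the other was found in a minority of them. Capitals mark CCAAT and TATAA on either strand. Col3a1 is on the plus strand at chr1:45311418-45311537 and Spp1 on the plus strand at chr5:104434991-104435110 of GRCm38.p6.
Col3a1: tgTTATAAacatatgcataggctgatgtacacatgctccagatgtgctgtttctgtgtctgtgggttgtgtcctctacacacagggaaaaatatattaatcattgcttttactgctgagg
Spp1: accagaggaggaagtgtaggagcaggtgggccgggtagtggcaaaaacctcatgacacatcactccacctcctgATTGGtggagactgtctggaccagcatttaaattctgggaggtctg
The Col3a1 window held TATAA on both strands, overlapping, 117 and 118 bases before the start. The Spp1 window held CCAAT on the reverse strand 46 bases before the start. Of 32851 promoter windows of the same length, 11.8% held TATAA and 21.3% held CCAAT, so either match is common.

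Collagen folding and crosslinking genes, such as the prolyl and lysyl hydroxylases, had 1 of 25 measured genes past the fold, with a median of 0.10. It was P4ha3, a prolyl 4-hydroxylase subunit, with 21 UMIs in E2 and 0 in placebo. P4ha3 was measured through its E2 UMIs alone, and at the same CPM only in placebo it would not have passed the filter. Matrix proteases and their inhibitors had 5 of 24 past the fold higher and 1 lower, beside 6.1% and 3.8% of all measured genes. Their median was 0.52. Mmp3, stromelysin 1, gave 236 UMIs in 7 of 40 E2 barcodes and 13 UMIs in 3 of 10 placebo barcodes, log2 1.98. Plau, urokinase, gave 24 UMIs in 14 E2 barcodes and 0 in placebo, and was likewise measured through its E2 UMIs alone. Timp3, a matrix-bound inhibitor of metalloproteinases, stood at 444 and 177 CPM, log2 1.28, with 89.7% of the placebo UMIs in 1 barcode. Mmp9, gelatinase B, had 21 and 19 UMIs in E2 and placebo, log2 -1.64.

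Contractile genes of the myofibroblast state differed little, with 1 of 14 measured genes past the fold. Acta2, smooth muscle actin, gave 54 and 5 UMIs in E2 and placebo (log2 1.12), and Tagln, transgelin, 66 and 10 UMIs (log2 0.57). Over all members Tagln had a log2 ratio of 2.36, with 215 UMIs in E2 and 11 in placebo, a set that includes the Rgs5-bearing barcode.

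The 15 highest named genes held further secreted and surface proteins. Lrrc15, a leucine-rich repeat membrane protein found on subsets of tumour fibroblasts, gave 103 UMIs in 10 E2 barcodes and 1 in placebo, a ratio of 24.4 (4.28 to 974). Cthrc1, a secreted protein of wound and tumour stroma, gave 321 UMIs in 17 E2 barcodes and 10 in 3 placebo barcodes, a ratio of 7.61 (4.08 to 16.02). Spon1, spondin 1, gave 126 and 1 UMIs in E2 and placebo, and Pi15, a peptidase inhibitor, 50 and 1. Ctgf, connective tissue growth factor, gave 47 and 1, and Ptch1, the Hedgehog receptor that is also a target of that pathway, 91 and 1. Against 1 placebo UMI a ratio is loosely fixed, as the interval of Lrrc15 shows.

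Mest, an imprinted gene expressed from the paternal allele, gave 285 UMIs in 13 E2 barcodes and 4 in 3 placebo barcodes, log2 3.62. Ly6a, which encodes the stem and progenitor antigen Sca-1, gave 126 UMIs in 10 E2 barcodes and 3 in 1 placebo barcode, log2 2.76. Apod, the lipid-binding protein apolipoprotein D, was the most abundant of these genes in UMIs, with 1013 in 23 E2 barcodes and 39 in 7 placebo barcodes, log2 2.57. Ctla2a, a cysteine protease inhibitor, gave 97 and 1 UMIs, and Pltp, phospholipid transfer protein, 66 and 1.

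These 15 genes were uneven across E2 cells. In barcodes with 2000 or more UMIs the median CPM was 0 in E2 for Tnc, Spp1, Mest, Lrrc15, Ly6a and Cthrc1, and between 9 and 13 of the 28 E2 barcodes carried each of them. For Apod the E2 median was 79.6 CPM and the placebo median 165 CPM, the reverse of the pooled order, and 1 E2 barcode held 39.98% of its E2 UMIs. All 15 stayed past the fold when any one of the 5 deepest placebo barcodes was left out, and without any shared barcode. Many of them had 0 or 1 placebo UMI, so leaving out placebo barcodes could hardly bring them under the fold. Single E2 barcodes were not left out, though 1 held 55.6% of the E2 UMIs of Tnc and 1 held 46.4% of those of Spp1. With every barcode given equal weight 13 of the 15 were past the fold, Spon1 (0.99) and Pi15 (0.41) falling short. A lower level in each placebo cell and fewer placebo cells of the kind that carry these genes cannot be told apart with 10 placebo barcodes.

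**Figure D4:**
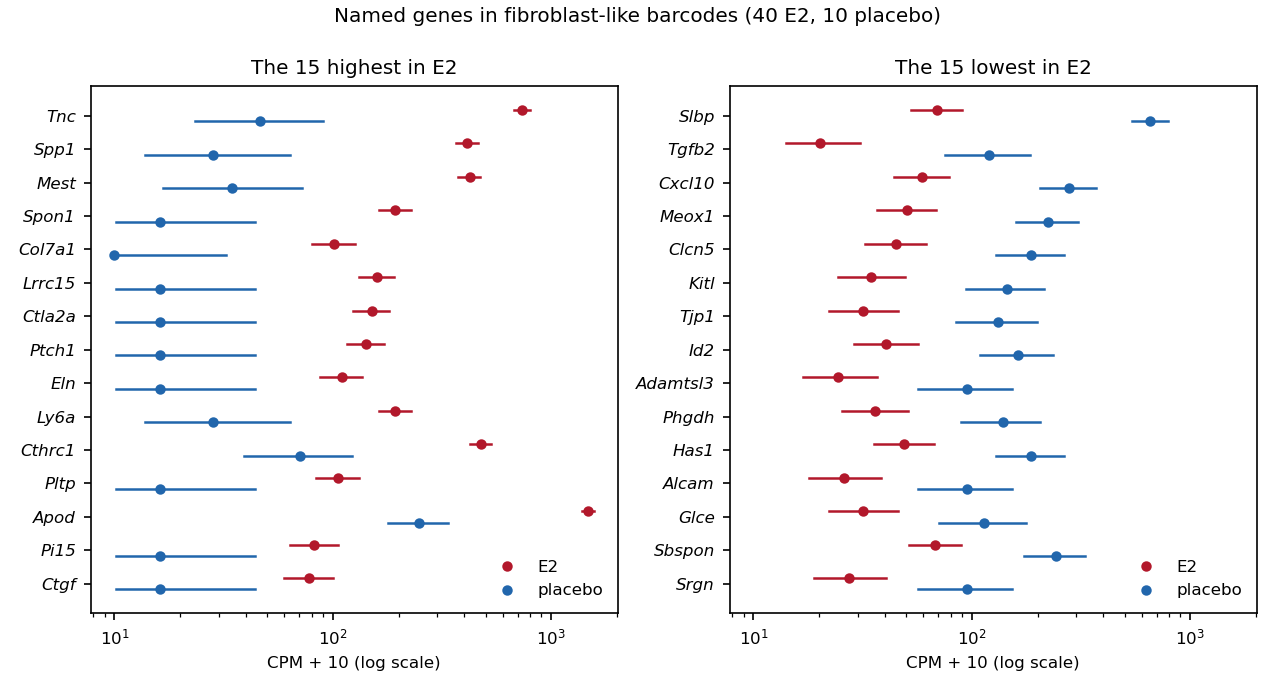
The 15 genes highest (left) and the 15 lowest (right) in E2 by the naming rule, as pooled CPM plus 10 on a log axis in the 40 E2 and 10 placebo fibroblast-like barcodes, with exact Poisson 95% intervals that cover counting error only. On the left the placebo points lie close to 10 for most genes, at 0 or 1 UMI. On the right the placebo levels lie between 85.4 CPM (Alcam, Adamtsl3 and Srgn) and 646 CPM (Slbp), and the E2 levels between 10.1 CPM (Tgfb2) and 59.2 CPM (Slbp).

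The 15 lowest named genes were mostly of few UMIs, and single barcodes decided several. Slbp, which binds the stem-loop of histone mRNA, had 41 UMIs in 17 E2 barcodes and 106 in 5 placebo barcodes, log2 -3.24. One placebo barcode of 31601 UMIs held 97 of the 106, and without it the log2 ratio was -0.17. The same barcode held 28 of 44 placebo UMIs of Cxcl10, an interferon-induced chemokine (34 UMIs in E2, log2 -2.23), and 20 of 29 of Has1, a hyaluronan synthase (27 UMIs in E2, log2 -1.93). Without it Has1 fell short of the fold at -0.67, and Cxcl10 did not, at -1.15. The barcode also held 12 of the 14 placebo UMIs of Srgn, a proteoglycan abundant in leukocyte granules. With these went markers of other cells. It held 33 of the 56 pan-leukocyte UMIs of the placebo fibroblast-like barcodes, 5 of their 8 macrophage and monocyte UMIs and all 4 of their hair follicle keratin UMIs. The part of such RNA in its values was not tested.

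Tgfb2, a TGF-beta ligand, had 7 UMIs in E2 and 18 in placebo, log2 -2.57, in 4 barcodes each. Meox1, a mesodermal homeobox factor, had 28 and 35 UMIs in E2 and placebo, log2 -2.15, in 11 of 40 and 5 of 10 barcodes. Kitl, the ligand of the receptor Kit, had 17 and 22 UMIs, log2 -2.06, in 8 and 6 barcodes. The median of Meox1 in deep barcodes was 0 CPM in E2 and 82.4 CPM in placebo, and that of Kitl 0 and 43.3 CPM. The others were Clcn5, Tjp1, Id2, Adamtsl3, Phgdh, Alcam, Glce, Sbspon and Srgn, with log2 ratios between -2.06 and -1.80. With each of the 5 deepest placebo barcodes left out in turn, 9 of the 15 were past the fold all 5 times. Another 3, Tgfb2, Alcam and Srgn, were past it in 4 settings and under 20 UMIs in the remaining one. With every barcode given equal weight 10 of the 15 were past the fold, Clcn5 (-0.62), Tjp1 (-0.91), Id2 (-0.44) and Glce (-0.88) falling short and Srgn being at 0.42. Without any shared barcode 9 were still measured and 7 of them past the fold.

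Genes of the PDGF, FGF, VEGF and HGF families had 6 of 18 measured genes past the fold higher in E2 and 2 lower. The shares over all measured genes were 6.1% and 3.8%, and the list median was 0.43. Pdgfrb, a receptor of PDGF that marks mesenchymal cells, stood at 389 CPM in E2 and 134 CPM in placebo, log2 1.47. Its deep-barcode values ran from 0 through 259 to 1585 CPM in E2 and from 0 through 86.7 to 272 CPM in placebo. Pdgfra, the other PDGF receptor, stood at 267 and 329 CPM, log2 -0.29. Gas6, the ligand of the receptor Axl, gave 146 and 11 UMIs (log2 1.52), and Nrp1, a co-receptor of VEGF, 275 and 27 (log2 1.22). Angpt2, a ligand of the endothelial receptor Tie2, gave 28 and 0 and was measured through its E2 UMIs alone.

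TGF-beta, BMP and activin genes had 0 of 19 past the fold higher and 3 lower, Tgfb2 among them, with a median of -0.03. Wnt genes had 2 of 14 higher and 1 lower, with a median of 0.02. Of these Sfrp2, a secreted Wnt modulator, gave 123 UMIs in 7 E2 barcodes and 0 in placebo, at least 9.72-fold higher against the floor, and 47.2% of the UMIs came from 1 barcode. Fzd1, a Wnt receptor, had 47 and 38 UMIs in E2 and placebo, log2 -1.63.

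Cytokine, chemokine and related inflammatory genes lay on both sides. Of 21 measured, 5 were past the fold higher in E2 and 4 lower, beside 6.1% and 3.8% of all measured genes. Cxcl10 and Has1 were among the lower ones, and the list median was 0.58. Cxcl12, the stromal chemokine that binds Cxcr4, gave 116 UMIs in 17 E2 barcodes and 8 in 4 placebo barcodes, log2 1.60. Il33, an alarmin, gave 68 and 7, log2 1.04. Ccl2, the monocyte attractant, stood at 314 and 811 CPM in E2 and placebo, log2 -1.34. Il6 gave 12 UMIs in 5 E2 barcodes and 31 in 2 placebo barcodes, log2 -2.86, and 27 of the 31 came from the 31601-UMI barcode named above. Complement genes had 1 of 6 past the fold. The 14 measured interferon-gamma genes had a median of -0.17 and the 9 measured type I interferon genes 0.04, with 1 past the fold higher in E2 in each list and 1 past it lower among the interferon-gamma genes.

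The receptor for E2 was detected in few fibroblast-like barcodes. Esr1 (estrogen receptor alpha, chr10:4611593-5005614 of GRCm38) gave 10 UMIs in 8 of 40 E2 barcodes, or 14.5 CPM (6.93 to 26.6), and 0 UMIs in 10 placebo barcodes (interval of the share up to 30.8%), where a floor of 3 UMIs is 18.3 CPM. A difference in Esr1 was therefore not detectable at this depth. In barcodes with a Ptprc UMI, Esr1 stood at 3.22 CPM in E2 and 2.91 CPM in placebo, found in 146 of 5146 and 59 of 3051 barcodes. Esr2, the second receptor, had 0 UMIs in both libraries. Pgr, the progesterone receptor and a classical estrogen target, gave 15 UMIs in 8 of 40 E2 barcodes and 0 in placebo, and stood at 0.402 and 0.0434 CPM in E2 and placebo barcodes with a Ptprc UMI.

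Of 14 measured genes of the list of steroid receptors and estrogen-responsive genes, 5 were past the fold higher in E2 and 0 lower, beside 6.1% and 3.8% of all genes, and the list median was -0.04. That median was 0.59 with equal weight per barcode and 0.76 without any shared barcode. Whether the median over all genes moved as well under these settings was not examined. Without any shared barcode the placebo UMIs came mostly from the barcode of 24275 UMIs. Among the 5 were Greb1, Cxcl12, Fhl2 and Igfbp4. Greb1, a co-factor of estrogen receptor alpha induced by estradiol in breast cells, gave 28 UMIs in 10 of 40 E2 barcodes and 0 in placebo, at least 2.21-fold higher against the floor. Greb1 was measured through its E2 UMIs alone, and a gene of the same CPM found only in placebo would not have passed the filter. The shares over all genes carry the same imbalance. After thinning to 2000 UMIs no fibroblast-like barcode of either library held a Greb1 UMI. In a separate thinning of all members, 2 of 38 E2 barcodes did, and each thinning was 1 random draw. Fhl2, a LIM-domain co-regulator, gave 163 and 18 UMIs, log2 1.04.

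Igfbp4, which binds insulin-like growth factors, was the best measured of the 5 and was found in all 50 fibroblast-like barcodes. It stood at 3462 CPM (3325 to 3604) in E2 and 1695 CPM (1501 to 1906) in placebo, log2 1.03. In deep barcodes it ran from 593 through 2766 to 13391 CPM in E2 and from 1448 through 1648 to 6055 CPM in placebo, so the ranges overlapped. The 9 E2 glial-marker barcodes held no Igfbp4. Within the IGF axis, 2 of 13 measured genes were past the fold higher and 1 lower. The other higher one was the imprinted RNA H19, with 89 UMIs in E2, 83.1% of them in 1 barcode, and 0 in placebo. The lower one was Igfbp6, which prefers IGF-II, with 533 and 1475 CPM in E2 and placebo, log2 -1.45. In deep barcodes Igfbp6 had medians of 468 CPM in E2 and 1277 CPM in placebo, and overlapping ranges. Igf1 itself stood at 777 and 713 CPM, log2 0.12.

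The 120 bases before the RefSeq starts of Igfbp4 and Greb1 are shown because these genes head the estrogen-related results, one by its depth and the other by its absence in placebo. Capitals mark TATAA and GGTCA on either strand, GGTCA being the half-site letters of the element that estrogen receptors bind. Igfbp4 is on the plus strand at chr11:99041124-99041243 and Greb1 on the minus strand at chr12:16800887-16801006 of GRCm38.p6, each written 5′ to 3′ along its gene.
Igfbp4: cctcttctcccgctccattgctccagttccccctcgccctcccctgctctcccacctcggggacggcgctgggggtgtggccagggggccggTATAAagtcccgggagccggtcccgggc
Greb1: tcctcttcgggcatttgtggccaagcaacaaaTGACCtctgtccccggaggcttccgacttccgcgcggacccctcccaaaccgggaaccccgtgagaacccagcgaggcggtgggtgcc
The Igfbp4 window held TATAA 28 bases before the start. The Greb1 window held GGTCA on the reverse strand 88 bases before the start, letters that 18.9% of the 32851 windows held. The full palindrome, GGTCA and TGACC with 3 letters between them, was in none of the 4 printed windows and in 0.0304% of all windows.

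Genes of steady-state fibroblasts, expressed before tissue injury, divided rather than moved together. Of 19 measured, 8 were past the fold higher in E2 and 2 lower, beside 6.1% and 3.8% of all measured genes. The list median was 0.02. Thy1, the surface antigen CD90, stood at 717 CPM in E2 (33 of 40 barcodes) and 140 CPM in placebo (5 of 10), log2 2.27. Its deep-barcode medians were 585 CPM in E2 and 45.3 CPM in placebo, and the ranges overlapped, up to 2966 and 2329 CPM. Mgp, matrix Gla protein, stood at 2975 and 1152 CPM, log2 1.36, and Gpx3, a secreted glutathione peroxidase, at 254 and 73.2 CPM, log2 1.67. Pi16, a marker of adventitial fibroblasts, gave 49 and 3 UMIs, log2 1.51. Apod and Ly6a, described above, are also on this list. Lower in E2 were Cd34, a surface sialomucin, with 67 and 46 UMIs (log2 -1.44), and Abca8a, a lipid transporter gene, at log2 -1.02.

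A list of fibroblast transcription factors also holds the lineage genes Mest and Dlk1. Of 29 measured, 5 were past the fold higher in E2 and 2 lower, beside 6.1% and 3.8% of all measured genes. The list median was 0.25. Runx1 gave 81 and 6 UMIs (log2 1.45), Osr2 29 and 1 (log2 1.69) and En1 42 and 2 (log2 1.67) in E2 and placebo. The lower ones were Meox1 and Dlk1, a Notch-like ligand with 9 UMIs in E2 and 30 in 1 placebo barcode (log2 -3.07). The relative of Meox1, Meox2, lay at -0.99 with 162 and 78 UMIs. Hypoxia and glycolysis genes had 2 of 17 past the fold higher, with a median of 0.01. Lipid and adipocyte-lineage genes had 1 of 10 higher and 2 lower, with a median of -0.32.

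Dissociation and immediate-early genes, which respond within minutes to stress and tissue digestion, were on the lower side. Of 33 measured, 28 were lower in E2 and 5 higher, where 2975 of all 5704 measured genes were lower. The list median was -0.39, but only 2 of its genes were past the fold lower and 1 higher. Fos stood at 1525 CPM in E2 and 2298 CPM in placebo, log2 -0.59, and Egr1 at 889 and 1524 CPM, log2 -0.77. Over all members the same list had a median of 0.29, with 22 of 34 genes higher in E2, where 3119 of all 7084 measured genes were. The fibroblast-like median share of the list per barcode was 0.835% in E2 and 1.44% in placebo, with ranges of 0 to 3.49% and 0.0804 to 2.42%. Without any shared barcode the fibroblast-like median was 0.19, so the direction of this list depends on which barcodes are summed.

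**Figure D5:**
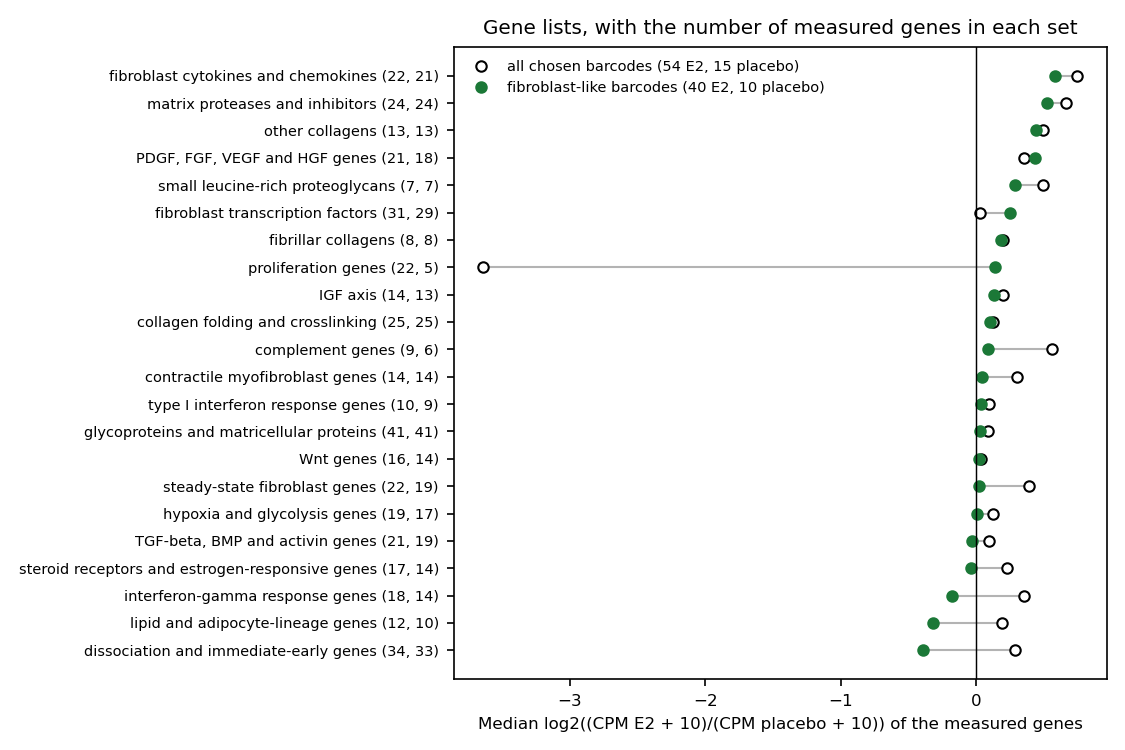
Median log2 ratio of E2 to placebo, with 10 CPM added to each, over the measured genes of each list, for all chosen barcodes (open circles) and fibroblast-like barcodes (filled circles). Numbers beside the list names are the measured genes in each set. Most lists lie within 0.6 of 0 in fibroblast-like barcodes, and the proliferation list moves from -3.64 over all chosen barcodes to 0.14.

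The members also varied among themselves. Leiden clustering of the 48 members with 2000 or more UMIs, at a resolution chosen after seeing the data, gave 4 clusters. The first, of 22 barcodes, was led by the homeobox gene Meox2, Sept4, the dipeptidase gene Dpep1 and the guanylate cyclase gene Gucy1a3. Its 10 leading genes also held Cdh5 of the endothelial list, found in 11 of the 22 barcodes, and Notch3 of the mural list, found in 16. It included the red-cell barcode and the placebo glial-marker barcode of 66019 UMIs. The second, of 11 barcodes, held only glial-marker barcodes and was led by genes that include Ecel1, Col20a1 and Ptprz1, with a median of 43 collagen UMIs. The third, of 9 barcodes, was led by 1500015O10Rik, Gpx3, Mmp3, Spp1, Dpt, Cilp, Lrrc15, Sfrp2 and Cthrc1 and had the highest median collagen, 1979 UMIs. The fourth, of 6 barcodes, was led by Apod, Trf, Enpp2, Tgfbi and Sox9. Spp1, Lrrc15 and Cthrc1 were each found in 8 of the 9 barcodes of the third cluster, and Apod in all 6 of the fourth. These genes took part in forming the clusters, so their levels there are descriptions. The 38 E2 and 10 placebo barcodes clustered were 16 and 6 in the first, 9 and 2 in the second, 8 and 1 in the third and 5 and 1 in the fourth. A cluster mostly of 1 library and a kind of cell cannot be told apart here.

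Across E2 fibroblast-like barcodes with 2000 or more UMIs (n = 28), the share of the rule collagens went with the share of glycoproteins and matricellular proteins (Pearson r 0.65, Spearman rho 0.76) and of collagen folding genes (r 0.58, rho 0.66). Its correlation with total UMIs was weaker (r 0.29, rho 0.20). In the 7 placebo barcodes the glycoprotein correlation was r 0.81 and rho 0.68, and that with total UMIs r -0.08 and rho 0.29. These are descriptions across barcodes of 1 library, which share library, depth and the collagen limit that chose them.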

How the data were processed

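Droplet 3′ RNA counts were analysed for 1 E2 and 1 placebo library. The deposited values are raw UMI counts per gene and barcode, without normalization, made by the authors with Cell Ranger 3.1.0 on mm10, per the submitters' processing notes. Each matrix lists 47730 features, and 47224 matched GENCODE M21 of GRCm38, which gave the coordinates. No deposited barcode has under 500 UMIs, and how that set was filtered is not stated. The 37 mitochondrial features held 0 UMIs, so mitochondrial shares could not be used.

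UMI counts were summed over the chosen barcodes of each library and given as CPM with exact Poisson 95% intervals. Ratios have exact conditional binomial intervals, and shares of barcodes exact Clopper-Pearson intervals. All cover counting error only. Measured genes had 20 or more UMIs over both libraries, and log2 ratios used CPM plus 10. A floor is 3 UMIs over the group. Named genes were the 15 highest and the 15 lowest log2 ratios among genes with 50 or more CPM in a library and a UMI in at least 25% of the barcodes of the library where the gene is higher, leaving out ribosomal, mitochondrial, antigen receptor and unnamed gene models. In lists, members with the largest ratios were named first. A few genes that this rule would name are not reported here. The 23 functional and 18 marker lists and the members were chosen with earlier results of these data known. The fibroblast-like set leaves out barcodes with 10 or more glial-list UMIs, the barcode with 1000 or more red-cell UMIs, and shared barcodes whose partner is 20 or more times deeper.

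Doublets were kept. As an alternative, the highest Scrublet scores were removed at 0.8% per 1000 barcodes (268 E2 and 98 placebo barcodes, of them 9 and 0 members). For shares of barcodes with a UMI, each was thinned to 2000 UMIs, which left out 12 E2 and 3 placebo fibroblast-like barcodes. Promoter windows are the 120 bases before the RefSeq start (GRCm38.p6), found for 4 of 5 genes sought, Col1a1 being the other. The counting steps were tested on simulated data. Python 3.11.15, numpy 2.4.6, scipy 1.17.1, pandas 2.3.3, scanpy 1.11.5, leidenalg 0.10.2 and matplotlib 3.10.9 were used.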

Additional observations from a re-analysis of the deposited data

How the results depend on the processing

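No paired analysis was possible because each group held 1 library. Counts over all members (286 higher and 266 lower in E2) were 489 and 456 with 1 CPM added, 62 and 83 with 50 CPM added, 492 and 500 with no filter, 63 and 33 among genes with 100 or more UMIs, and 91 and 30 after thinning to 2000 UMIs. They were 1039 and 736 at equal weight per barcode, 452 and 177 without barcodes with mural or endothelial markers, and 1069 and 516 without any shared barcode. The pseudocount, the filter and thinning change how many low genes can pass, by construction. For the other settings the cause was not tested. Over fibroblast-like barcodes (348 and 217) the counts were 1082 and 686 at equal weight and 1067 and 505 without any shared barcode. Lists with a median above that of all measured genes numbered 22 over all members and 14 at equal weight, and 18 over fibroblast-like barcodes and 11 at equal weight. The share of members in E2 barcodes stayed above that in placebo barcodes under every setting tried.

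Some single values over all members changed sign. At equal weight Sept4 was at -0.34 and Fam101b at -0.69. With stricter limits on immune genes Slbp was at 0.34. Without mural or endothelial-marker barcodes the proliferation median was 2.26 and Hmgb2 3.73. Without any shared barcode the proliferation median was 0.49, Fam101b -0.048, Cks2 2.36, Hmgb2 1.37, Tmpo 2.28 and Arl6ip1 0.50. Without the glial-marker barcodes the proliferation median was 0.092, Stmn1 1.12, Cks2 0.57, Hmgb2 0.68, H2afx 0.087, Tmpo 0.82, Arl6ip1 0.020 and Nde1 0.20. Over fibroblast-like barcodes it was 0.14, with Stmn1 1.06, Cks2 0.55, Hmgb2 0.64, H2afx 0.067 and Tmpo 0.70. Within the fibroblast-like set Srgn was at 0.42 at equal weight and Clcn5 at 0.20 without any shared barcode. The settings on shared, glial-marker, red-cell and fibroblast-like barcodes were added after seeing the data.

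With 10 placebo fibroblast-like barcodes, 5 of which hold 95.1% of the UMIs, depth limits every placebo level: the exact interval of 0 UMIs reaches 22.5 CPM. Each library came from an unknown number of mice and sorts, and the counting intervals do not cover differences between mice.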

Other observations

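Endothelial-list UMIs were found in 23 of 54 E2 members and 6 of 15 placebo members, and mural-list UMIs in 40 of 54 and 11 of 15. The endothelial list gave 467 UMIs over E2 members, 400 of them in the red-cell barcode, and 13 UMIs over placebo members. The mural list gave 704 UMIs over E2 members, 300 in the red-cell barcode, and 119 over placebo members. In fibroblast-like barcodes the endothelial list gave 61 and 12 UMIs, and the mural list 252 and 40, in E2 and placebo. Melanocyte genes were not measured in fibroblast-like barcodes, 8 of the 10 listed being at 0 in both libraries.

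The glial-marker barcodes also carried matrix genes. In the 9 E2 ones Sparc stood at 7110 CPM and Col1a1 at 865 CPM. Postn ran from 1148 through 2644 to 3515 CPM, and every one of the 9 carried Postn and Tnc UMIs. Spp1, Dcn, Mgp and Thy1 were at 0 in all 9. Mural-list UMIs, which include Notch3 and Des, were found in each of the 9, at 0.0651 to 0.307% of their UMIs.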
